A study of Mus musculus with 8 samples.

Results

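The enzymes that break down the branched-chain amino acids leucine, isoleucine and valine were followed as transcripts in the hearts of mice with a mutated Tafazzin gene. They are 10 listed genes (Bcat2, Bckdha, Bckdhb, Dbt, Bckdk, Ppm1k, Ivd, Mccc1, Mccc2 and Hibadh) chosen by name for their place in the pathway, out of 55471 gene rows in the count tables. Earlier results of these data were known when the genes were chosen. All 10 passed the filter on low counts and were tested. RNA was sequenced from mouse heart in 4 libraries labelled WT (wild type) and 4 labelled TAZG197V, mice of the latter genotype carrying a missense point mutation placed in the X-linked Taz gene by CRISPR/Cas9. Tafazzin remodels cardiolipin, the signature lipid of the inner mitochondrial membrane, and its loss in patients causes Barth syndrome. The mice were hemizygous males of 14 weeks per the study's text, whereas its methods and the protocol in the labels speak of matings for homozygous offspring. The labels give neither sex nor age. Founders came from C57BL/6N zygotes and were crossed to C57BL6/J, the mutant protein was not detected in heart by the study's western blots, and no treatment was given. A small piece of whole heart was used for each library, so the RNA comes from all cell types of that piece, and the mutation is present in every cell of the animal. The labels number the libraries of a genotype without saying that each is a separate animal, and p-values measure only the spread between these libraries.

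Total counts ranged from 23055689 to 36301031 per library, of which the listed genes took 31752 to 55294. By the sequencing file names, the libraries numbered 1 and 2 came from lane 7 and those numbered 3 and 4 from lane 8, for either genotype. The edited gene Taz was transcribed in every library, at 63.8, 58.7, 61.9 and 59.3 counts per 1000000 library counts (CPM, scaled by TMM) in WT 1 to WT 4 and at 48, 50.4, 46.3 and 44.3 CPM in TAZG197V 1 to TAZG197V 4. All mutant libraries lay below all WT libraries, and the log2 fold change was -0.37 (edgeR adjusted p = 0.00127). Counts per gene do not show the point mutation itself. Some libraries stood apart in genes that heart muscle does not use. The sum over 4 red cell genes was 44081 CPM in WT 4 against 277 to 854 CPM in the other WT libraries, and the sum over 5 brain genes reached 77 CPM in WT 4 and 200 CPM in TAZG197V 4 against 7.29 to 9.98 CPM in the other 6 libraries. The values of the listed genes without both of these libraries are therefore given where they matter.

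Branched-chain amino acids are first stripped of their amino group by a transaminase, which in heart is mainly the mitochondrial BCAT2. The branched-chain ketoacids are then committed to oxidation by the branched-chain ketoacid dehydrogenase complex (BCKDH), built from an E1 of alpha and beta chains (Bckdha, Bckdhb), an E2 core (Dbt) and an E3 shared with other complexes (Dld). The kinase BCKDK phosphorylates E1 and switches the complex off, and the phosphatase PPM1K removes the phosphate and switches it on. Past this step the routes part: isovaleryl-CoA dehydrogenase (Ivd) and methylcrotonyl-CoA carboxylase (Mccc1, Mccc2) serve leucine, and 3-hydroxyisobutyrate dehydrogenase (Hibadh) serves valine. Inherited defects of several of these enzymes cause organic acidurias, that of BCKDH being maple syrup urine disease.

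Transcripts of 7 of the 10 genes were lower in TAZG197V libraries and 0 were higher, where a call needed an edgeR adjusted p under 0.05, a level in the higher genotype at least 15% above the other and a mean scaled count of at least 50. An unadjusted edgeR p under 0.05 was found for 8 of the 10, all lower, and for 48% of all genes tested in either direction. DESeq2 called 7 lower and 0 higher. Over all 15084 genes tested, 14.8% were called lower and 18.4% were called higher by the same rule. The median log2 fold change was -0.30 over the 10 genes and -0.01 over all genes tested. The log2 fold change was negative for 9 genes and positive for 1. The genotypes did not overlap for 7 of the 10, each time with the mutant below, against 33.2% of all genes tested without overlap in either direction. The change was uneven along the pathway: Ivd fell by 49.3% and Ppm1k fell by 43.4%, and the transaminase Bcat2 was not called.

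Promoter sequence is shown for the listed genes with the largest well-supported falls that have an entry in the RefSeq promoter table (Ivd, Ppm1k, Mccc2 and Hibadh), with Bckdhb, which was not called, beside them. Each runs 5′ to 3′ on the gene's strand in build GRCm38.p6. The stretches are chr2:118861744-118861953 (plus strand) for Ivd, chr6:57535488-57535737 (minus) for Ppm1k, chr13:100015640-100015889 (minus) for Mccc2, chr6:52640390-52640550 (minus) for Hibadh and chr9:83924887-83925136 (plus) for Bckdhb. Those of Ivd and Hibadh were stopped at 210 and 161 bases, at the edge of the GENCODE gene. Capitals mark CCAAT on either strand (CCAAT or ATTGG), and in Mccc2 also CACGTG, the letters of an E-box.
Ivd: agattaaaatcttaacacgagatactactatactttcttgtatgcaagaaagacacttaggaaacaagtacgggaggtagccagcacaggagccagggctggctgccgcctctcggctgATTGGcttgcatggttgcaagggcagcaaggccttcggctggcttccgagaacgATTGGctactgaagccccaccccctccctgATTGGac
Ppm1k: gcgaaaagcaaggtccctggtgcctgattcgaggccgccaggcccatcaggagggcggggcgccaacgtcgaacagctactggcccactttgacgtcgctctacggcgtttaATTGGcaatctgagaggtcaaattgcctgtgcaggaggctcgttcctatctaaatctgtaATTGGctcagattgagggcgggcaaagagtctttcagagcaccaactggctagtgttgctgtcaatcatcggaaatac
Mccc2: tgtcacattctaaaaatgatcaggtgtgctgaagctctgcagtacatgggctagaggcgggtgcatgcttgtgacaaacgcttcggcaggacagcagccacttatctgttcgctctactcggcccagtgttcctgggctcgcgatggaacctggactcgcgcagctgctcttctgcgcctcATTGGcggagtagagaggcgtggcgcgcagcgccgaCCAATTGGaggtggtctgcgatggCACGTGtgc
Hibadh: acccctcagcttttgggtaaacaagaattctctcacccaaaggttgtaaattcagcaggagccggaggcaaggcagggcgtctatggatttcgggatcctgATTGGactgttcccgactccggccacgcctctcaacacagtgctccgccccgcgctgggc
Bckdhb: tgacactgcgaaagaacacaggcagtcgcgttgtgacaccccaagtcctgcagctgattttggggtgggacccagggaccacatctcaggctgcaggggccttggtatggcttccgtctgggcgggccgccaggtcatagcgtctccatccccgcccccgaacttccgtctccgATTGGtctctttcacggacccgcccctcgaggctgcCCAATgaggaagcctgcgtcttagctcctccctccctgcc
CCAAT on either strand was found in the 250 bases before 7 of the 11 RefSeq starts of the 9 listed genes with an entry (63.6%), against 33.8% of all 32851 mouse starts in the table. The 7 starts belong to 7 genes, of which 5 were called lower (Bckdk, Ppm1k, Ivd, Mccc2 and Hibadh) and Bckdhb and Mccc1 were not called. Of the other genes with an entry, Bckdha was called lower and Bcat2 was not called. Only 30 of the 250 bases before the Bckdha start lie outside the GENCODE gene. For the downstream starts of Bcat2 and Bckdhb, 0 of the 250 bases do, so these windows lie inside the gene. CACGTG, which carbohydrate response factors such as the product of Mlxipl read in pairs, was found before 1 of the 11 starts (that of Mccc2, 9.09%) against 6.02% of all starts. CCACCC was found before 3 of 11 (27.3%) against 28.1%, and GGGCGG before 4 of 11 (36.4%) against 32.7%. AAGGTCA, the half-site of several nuclear receptors, was found before 0 of 11 against 4.08%, and TGATGNAAT, the element read by ATF4 with C/EBP partners, before 0 of 11 against 0.816%. Both strands were searched each time. A match is a run of letters and not a site shown to be bound, and the absence of a match says only that the letters are not in this window.

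Bcat2 (ENSMUSG00000030826, chromosome 7, 45570153 to 45589711, plus strand, mm10) encodes the mitochondrial transaminase that opens the pathway. It stood at 130, 102, 117 and 127 CPM in WT 1 to WT 4 and at 122, 121, 150 and 120 CPM in TAZG197V 1 to TAZG197V 4. The genotypes overlapped, and only TAZG197V 3 lay above the WT range. Means were 119 ± 12.7 CPM and 128 ± 14.3 CPM (SD, n = 4 each), with a log2 fold change of 0.10 ± 0.0903 (SE, edgeR adjusted p = 0.421). The cytosolic transaminase Bcat1, which is scarce in adult heart, was at 1.59, 2.28, 1.44 and 2.81 CPM in WT and at 5.59, 5.15, 3.16 and 7.08 in TAZG197V. Every mutant library lay above every WT library, and the log2 fold change was 1.42 ± 0.221 (adjusted p = 0.00187). The read count of Bcat2 over that of Bcat1 was 63.2 ± 21.2 in WT and 27.4 ± 13.6 in TAZG197V, with the genotypes overlapping (log2 difference -1.26, two-sided exact permutation p = 0.0857). This ratio was 1 of 5 tested, and its p adjusted over the 5 was also 0.0857.

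**Figure D1:**
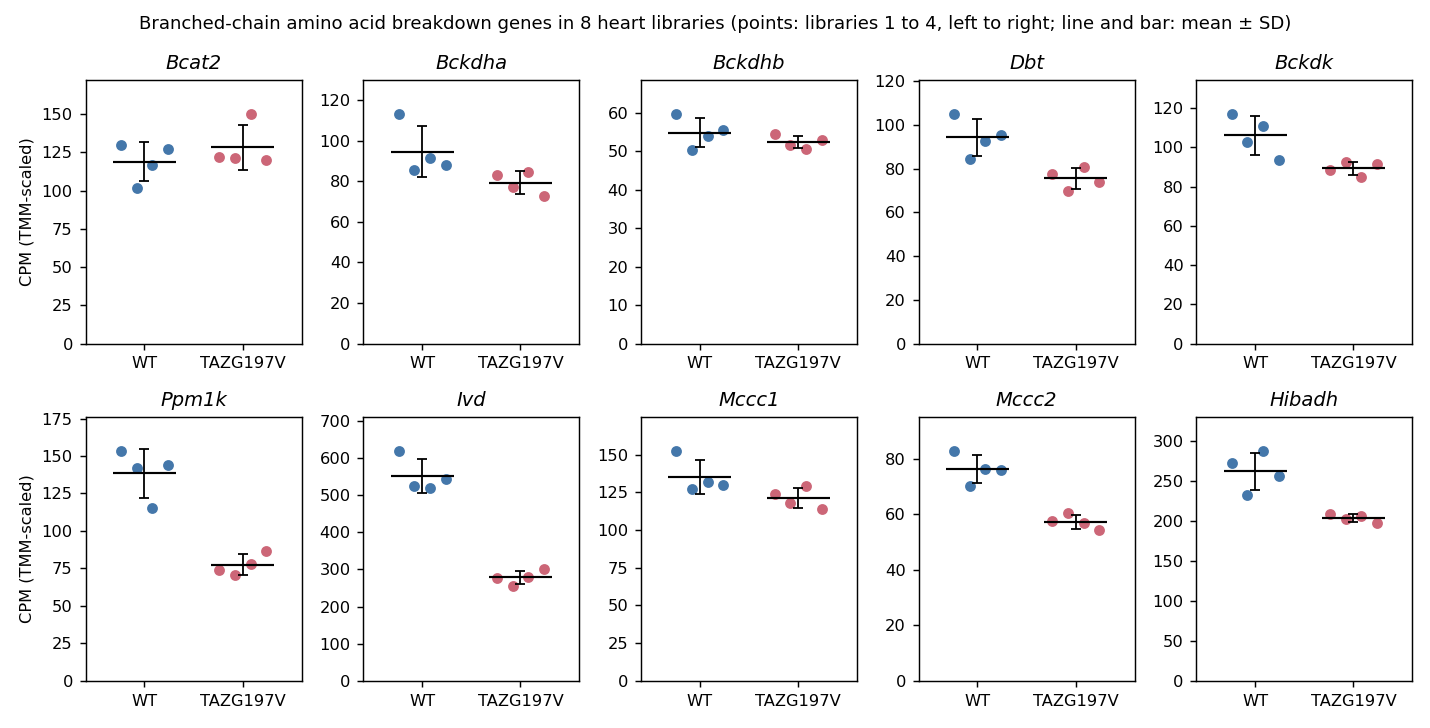
TMM-scaled CPM (vertical axes, from 0, a scale of its own for each gene) of the 10 branched-chain amino acid breakdown genes in WT (blue) and TAZG197V (red) heart libraries, with a point for each of libraries 1 to 4 from left to right and a line and bar for the mean ± SD (n = 4). The mutant points of Ivd (256 to 301 CPM) and Ppm1k (70.8 to 86.8 CPM) sit far below the WT points (520 to 617 and 115 to 153 CPM), while those of Bcat2, Bckdhb and Mccc1 overlap with WT.

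Of the 3 subunits particular to BCKDH, Dbt and Bckdha were called lower and Bckdhb was not called. Bckdha (ENSMUSG00000060376, chromosome 7, 25629946 to 25658981, minus strand), the E1 alpha chain that carries the phosphorylated serines, was at 113, 85.5, 91.6 and 88 CPM in WT and 83.1, 76.9, 84.7 and 72.5 CPM in TAZG197V. The groups did not overlap, but the gap between the highest mutant and the lowest WT library was small. Its log2 fold change was -0.26 ± 0.0882 (edgeR adjusted p = 0.0462), which only just passed. The call was lost in 10 of 17 alternative fits, with adjusted p between 0.0585 and 0.125, among them the fits without WT 1, without each TAZG197V library in turn and without both number 4 libraries (adjusted p = 0.0767). In addition, 61.7% of its exon bases are shared with B3gnt8 on the opposite strand, and whether the counting used strand is not given in the sources used here. B3gnt8 itself had 81 to 174 counts per library, against 1970 to 3331 for Bckdha.

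Bckdhb (ENSMUSG00000032263, chromosome 9, 83925145 to 84124240, plus strand) encodes the E1 beta chain. It was at 59.6, 50.4, 53.8 and 55.5 CPM in the WT libraries and at 54.4, 51.7, 50.6 and 52.9 CPM in the mutant libraries. All mutant libraries lay inside the WT range, and the gene was not called (log2 fold change -0.07 ± 0.0621, adjusted p = 0.41). Dbt (ENSMUSG00000000340, chromosome 3, 116513070 to 116549981, plus strand) encodes the E2 core that transfers the acyl group to coenzyme A. It was at 105, 84.4, 92.7 and 95.6 CPM in WT and at 77.8, 69.9, 81 and 74 CPM in TAZG197V. Here the groups were apart, and Dbt fell by 20.2% (log2 fold change -0.33 ± 0.0721, adjusted p = 0.00911), a call that all 17 alternative fits kept (adjusted p of at most 0.0407).

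Because both come from the same library, the ratio of Dbt to Bckdhb read counts does not depend on library scaling. It was 1.76, 1.67, 1.72 and 1.72 in WT and 1.43, 1.35, 1.6 and 1.4 in TAZG197V. The WT libraries were close to each other and all mutant libraries lay below them, so Dbt was lower relative to Bckdhb in the mutant (log2 difference -0.25, two-sided exact permutation p = 0.0286, the smallest that 4 against 4 allows, and 0.0476 adjusted over 5 ratios). For Bckdha over Bckdhb the means were 1.72 ± 0.127 and 1.51 ± 0.125, with overlap between the genotypes (log2 difference -0.18, exact permutation p = 0.0571, adjusted 0.0714). With 1 library left out the smallest possible p is 0.0571, so no ratio could pass there. The log2 difference of Dbt over Bckdhb stayed between -0.30 and -0.22 in those subsets.

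The kinase and the phosphatase of the complex both fell, by different amounts. Bckdk (ENSMUSG00000030802, chromosome 7, 127904082 to 127910221, plus strand), the kinase that inactivates BCKDH, was at 117, 103, 111 and 93.8 CPM in WT and 88.4, 92.5, 85 and 91.6 CPM in TAZG197V. The groups were apart by a narrow margin between WT 4 and TAZG197V 2. Its log2 fold change was -0.25 ± 0.0747 (edgeR adjusted p = 0.0314). The call was lost in 7 of 17 alternative fits, at adjusted p of 0.0588 to 0.0868, including those without WT 1, WT 3, TAZG197V 1, TAZG197V 2 or TAZG197V 3 and that with the replicate block (adjusted p = 0.0603). Without both number 4 libraries it was called (log2 fold change -0.33, adjusted p = 0.0102).

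Ppm1k (ENSMUSG00000037826, chromosome 6, 57506502 to 57535468, minus strand), the mitochondrial phosphatase that reactivates BCKDH, showed a much larger fall. It was at 153, 142, 115 and 144 CPM in WT and at 74.1, 70.8, 78.2 and 86.8 CPM in TAZG197V. Even the lowest WT library was well above the highest mutant library. The mean went from 138 ± 16.4 CPM to 77.5 ± 6.92 CPM, or 0.566 times the WT level (log2 fold change -0.82 ± 0.0821, adjusted p = 0.000235). All 17 alternative fits called it lower, with log2 fold changes of -0.90 to -0.75. The difference was -1.02 within lane 7 and -0.64 within lane 8 on the log2 CPM scale.

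The opposing enzymes' transcripts were also set against each other in each library. Bckdk counts over Ppm1k counts were 0.766, 0.725, 0.967 and 0.653 in WT and 1.19, 1.31, 1.09 and 1.06 in TAZG197V. The ratio of reads was under 1 in every WT library and over 1 in every mutant library, but the principal transcript of Ppm1k (5.56 kb) is longer than that of Bckdk (3.4 kb). Per kb of these transcripts Bckdk was above Ppm1k in all 8 libraries, at 34.4, 30.2, 32.7 and 27.5 CPM per kb in WT 1 to WT 4 against 27.5, 25.6, 20.7 and 25.8 for Ppm1k, so which of the pair is the more abundant does not turn between the genotypes on that scale. The mean ratio was 0.778 ± 0.135 in WT and 1.16 ± 0.114 in TAZG197V (log2 difference 0.59, exact permutation p = 0.0286, adjusted 0.0476), and the log2 difference was between 0.51 and 0.70 with any 1 library left out. The counts say nothing about the amount of either protein or the phosphorylation of the complex.

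**Figure D2:**
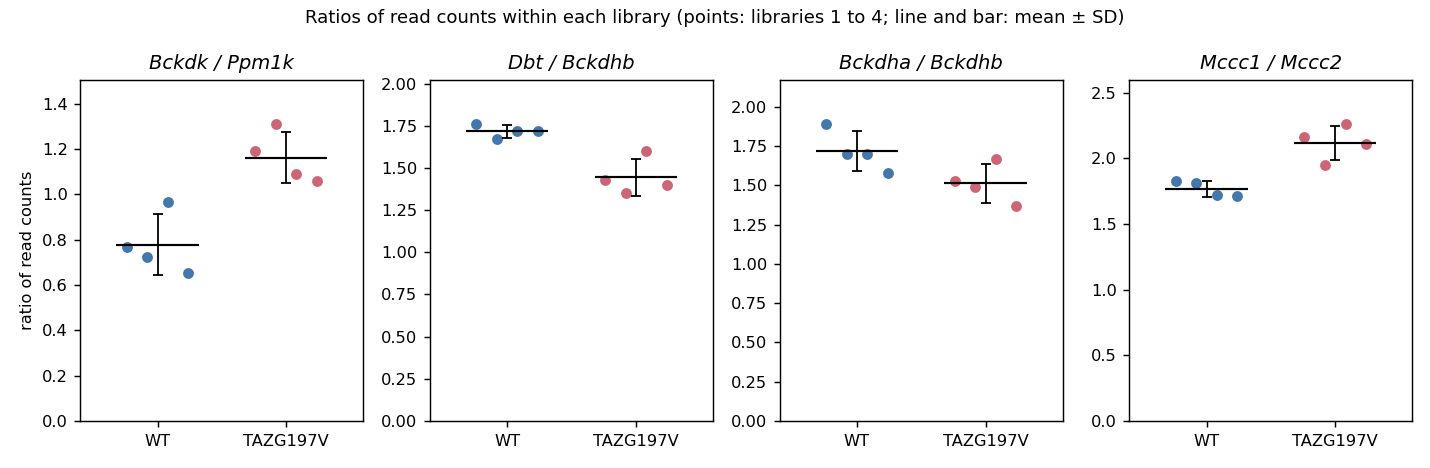
Ratio of read counts of paired genes within each library (vertical axes, no unit, from 0) for Bckdk over Ppm1k, Dbt over Bckdhb, Bckdha over Bckdhb and Mccc1 over Mccc2, with a point for each of libraries 1 to 4 of WT (blue) and TAZG197V (red) and a line and bar for the mean ± SD (n = 4). The kinase to phosphatase ratio lies at 0.653 to 0.967 in WT and 1.06 to 1.31 in TAZG197V, and Bckdha over Bckdhb is the ratio whose genotypes overlap.

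Ivd (ENSMUSG00000027332, chromosome 2, 118861954 to 118882909, plus strand), the flavin dehydrogenase that oxidises isovaleryl-CoA in the leucine route, had the largest change of the 10 genes. Its CPM was 617, 523, 520 and 542 in WT and 276, 256, 280 and 301 in TAZG197V. The mutant libraries formed a tight group near 0.507 times the WT level, with no overlap. The log2 fold change was -0.98 ± 0.0798 (edgeR adjusted p = 8.77e-05) and ranged from -1.05 to -0.92 over 17 alternative fits, each of which called it. Within lane 7 the difference was -1.09 and within lane 8 it was -0.87. Between 7608 and 19014 reads per library support these values, the most of the listed genes.

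Methylcrotonyl-CoA carboxylase, the enzyme that follows IVD in the leucine route, is built of a biotin-carrying alpha chain (Mccc1) and a beta chain (Mccc2). Mccc1 (ENSMUSG00000027709, chromosome 3, 35959312 to 36000678, minus strand) was at 152, 127, 132 and 130 CPM in WT and 124, 118, 129 and 114 CPM in TAZG197V. TAZG197V 3 lay inside the WT range, and the gene was not called (log2 fold change -0.16 ± 0.0674, adjusted p = 0.0914). Mccc2 (ENSMUSG00000021646, chromosome 13, 99948530 to 100015639, minus strand) was at 82.7, 70.3, 76.5 and 76.1 CPM in WT and 57.5, 60.6, 57.1 and 54.3 CPM in TAZG197V. It fell by 25.3% with the groups apart (log2 fold change -0.42 ± 0.0609, adjusted p = 0.00132), and all 17 alternative fits called it. Mccc2 was also lower relative to its partner: Mccc1 over Mccc2 was 1.83, 1.81, 1.72 and 1.71 in WT and 2.16, 1.95, 2.26 and 2.11 in TAZG197V. Every mutant ratio lay above every WT ratio (log2 difference 0.26, exact permutation p = 0.0286, adjusted 0.0476).

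Hibadh (ENSMUSG00000029776, chromosome 6, 52546228 to 52640389, minus strand) encodes the dehydrogenase that oxidises 3-hydroxyisobutyrate, the valine intermediate that can leave the mitochondrion and the cell. It was at 273, 233, 287 and 256 CPM in WT and 209, 203, 206 and 197 CPM in TAZG197V. The groups were apart, with a WT mean of 262 ± 23.5 CPM and a mutant mean of 204 ± 5.16 CPM. Hibadh fell by 22.7% (log2 fold change -0.37 ± 0.0576, adjusted p = 0.00182), and 17 of 17 alternative fits called it.

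Levels of different genes were compared per kilobase of transcript. Ivd had the highest WT mean of the 10, at 100.0 CPM per kb of merged exons and 150 CPM per kb of the principal transcript. In TAZG197V libraries these values were 50.6 and 76. Hibadh was next at 144 CPM per kb of the principal transcript in WT but only 25.8 CPM per kb of merged exons, because its merged exons are 10.2 kb long and its principal transcript 1.82 kb. On the principal-transcript scale the WT libraries of Ivd (142 to 168) and Hibadh (127 to 157) overlapped, and Hibadh was the higher in WT 3. In TAZG197V every library of Ivd (69.9 to 82.1) lay below every library of Hibadh (108 to 115). The BCKDH subunits and their kinase and phosphatase lay closer together, at 24.9 (Ppm1k) to 49.7 (Bckdha) CPM per kb of the principal transcript in WT. With the lengths of the expressed isoforms unknown, the order of the other genes depends on the length used, and no test was made between genes.

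The libraries moved as wholes to some extent. WT 1 was the highest WT library in 9 of the 10 genes and WT 2 the lowest in 7. Among the mutants, TAZG197V 4 was the lowest in 5. Deviations from the genotype mean had a median of 0.15 in WT 1 and -0.12 in WT 2 on the log2 scale, less than the fall of Dbt, Mccc2, Hibadh, Ppm1k or Ivd. Within-lane differences had the same sign in lane 7 and lane 8 for all 10 genes: for Dbt -0.35 and -0.28, for Mccc2 -0.37 and -0.45, for Hibadh -0.29 and -0.43, for Bckdha -0.30 and -0.20, and for Bckdk -0.28 and -0.21. In bulk tissue, fewer cells of a type and less RNA per cell cannot be told apart.

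**Figure D3:**
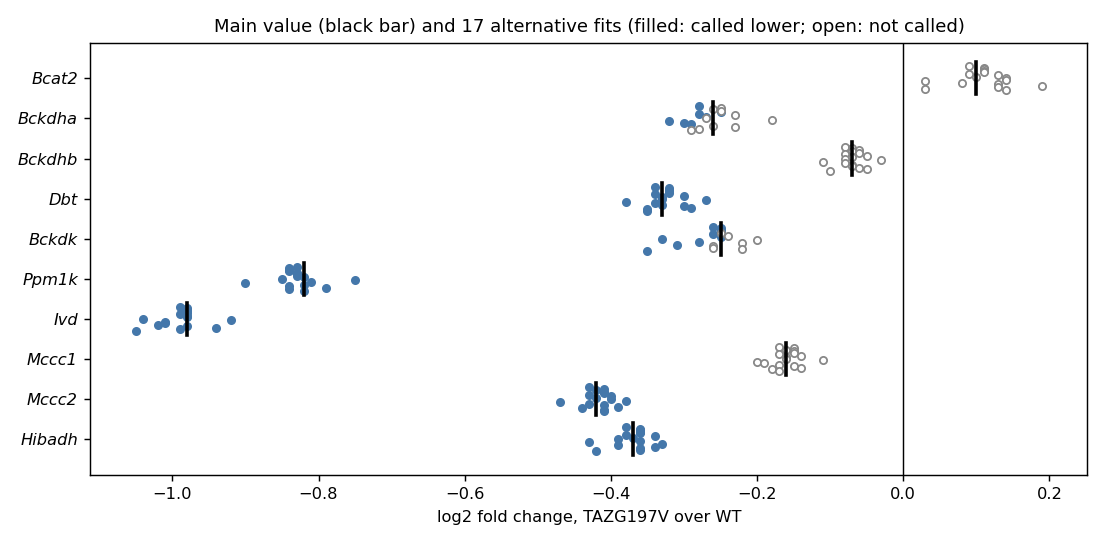
Log2 fold change of each of the 10 genes (horizontal axis, TAZG197V over WT) in the reported fit (black bar) and in 17 alternative fits (points, filled where the gene was called lower and open where it was not called). Dbt, Ppm1k, Ivd, Mccc2 and Hibadh are filled throughout, Bckdha is filled in 7 fits and Bckdk in 10, and no point of the 7 genes called lower reaches 0.

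Another 16 genes of the pathway were listed to place the 10 genes among their neighbours. Of these, 9 were called lower and 3 higher, with a median log2 fold change of -0.25, against 14.8% and 18.4% of all genes. Over the alternative fits 7 to 10 were called lower and 1 to 3 higher. Dld, the E3 that BCKDH shares with the pyruvate and oxoglutarate complexes, was not called (-0.05, adjusted p = 0.586), nor was Auh, the hydratase that follows methylcrotonyl-CoA carboxylase in the leucine route (-0.03, adjusted p = 0.73).

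In the isoleucine route, Acat1, the thiolase that also serves ketone use, fell from 714 ± 60.7 to 488 ± 17.9 CPM (log2 fold change -0.55, adjusted p = 0.00103), and Acadsb, the short branched-chain acyl-CoA dehydrogenase, fell by 21.2% (-0.34, adjusted p = 0.00458). Hsd17b10, a dehydrogenase that is also a subunit of mitochondrial RNase P, was higher (0.25, adjusted p = 0.0193), with overlapping genotypes and the call lost without WT 2 (adjusted p = 0.0581) or TAZG197V 4 (adjusted p = 0.0835). The Hsd17b10 call was also lost with no surrogate variables (0.0692) or with the lane in their place (0.0836). In the valine route, Acad8, the isobutyryl-CoA dehydrogenase, fell (-0.38, adjusted p = 0.00191). Aldh6a1, the semialdehyde dehydrogenase that follows Hibadh, was lower (-0.24, adjusted p = 0.0287) and Hibch, the hydrolase that precedes Hibadh, was higher (0.28, adjusted p = 0.0308). The genotypes overlapped in both genes. The Aldh6a1 call was lost without WT 1 (adjusted p = 0.0668), TAZG197V 1 (0.111), TAZG197V 2 (0.0938) or TAZG197V 4 (0.0644), and the Hibch call in 10 of 17 fits, among them those without WT 2 (adjusted p = 0.0983), WT 4 (0.0524), TAZG197V 1 (0.0922), TAZG197V 2 (0.0797) or TAZG197V 4 (0.12).

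The propionate end, where isoleucine and valine carbon enters the citric acid cycle as succinyl-CoA, had 5 of 6 genes called lower. Mut, the cobalamin-dependent methylmalonyl-CoA mutase, was at 159, 144, 141 and 155 CPM in WT and 111, 104, 110 and 103 CPM in TAZG197V. The genotypes were far apart (log2 fold change -0.49 ± 0.0609, adjusted p = 0.000655). The cobalamin enzymes Mmab (-0.43, adjusted p = 0.00129) and Mmaa (-0.30, adjusted p = 0.00775), the carboxylase beta chain Pccb (-0.33, adjusted p = 0.00623) and the epimerase Mcee (-0.27, adjusted p = 0.0115) were the other 4. Mcee had overlapping genotypes. It was not called without TAZG197V 1 (adjusted p = 0.0572), with no surrogate variables (0.0784) or with the lane in their place (0.0951). Pcca, the carboxylase alpha chain, narrowly missed the threshold (-0.19, adjusted p = 0.0539) with no overlap between genotypes, and was called lower without WT 4 (adjusted p = 0.028) or TAZG197V 4 (adjusted p = 0.0433).

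**Figure D4:**
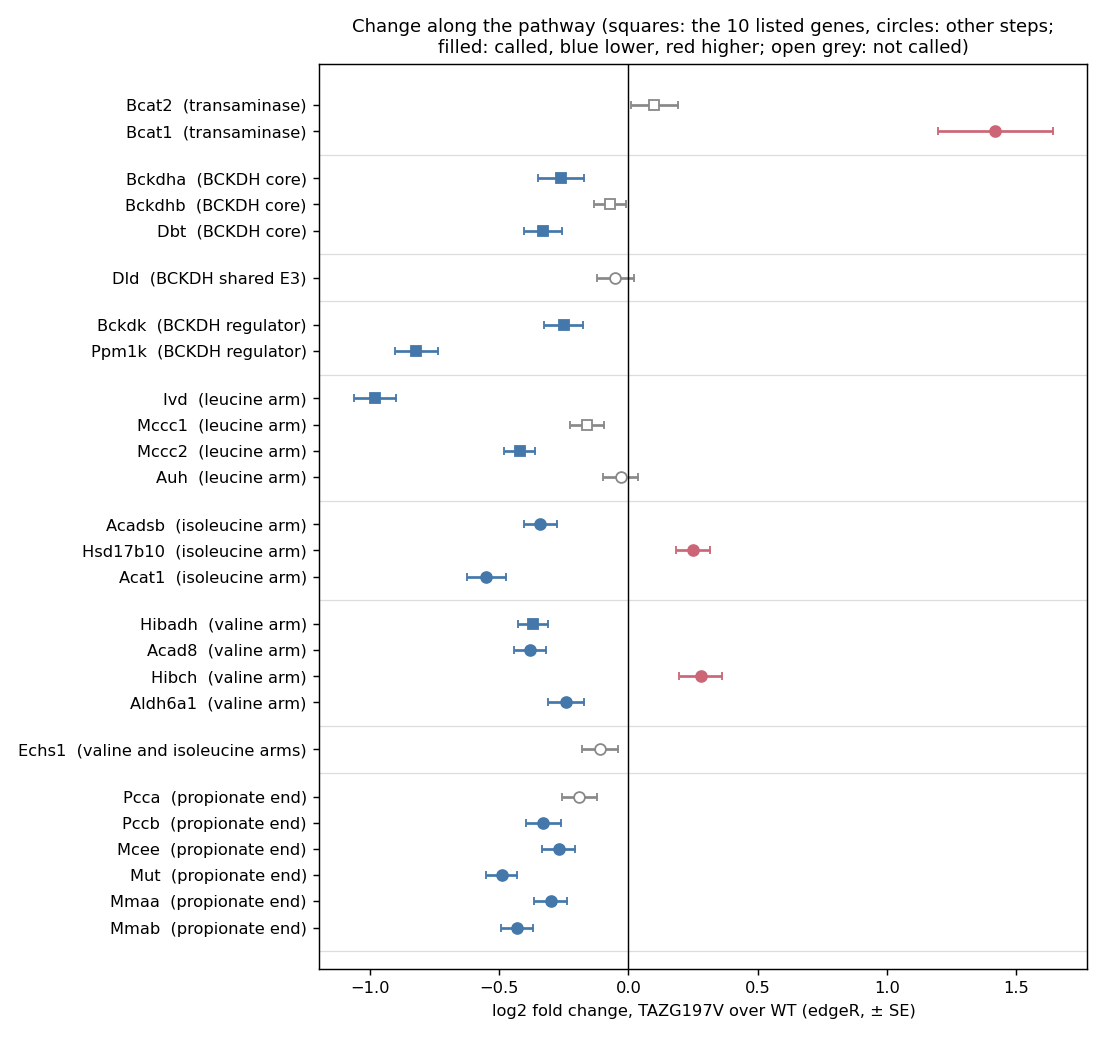
Log2 fold change (horizontal axis, TAZG197V over WT, bars ± SE from edgeR) of the 10 listed genes (squares) and 16 other genes of the pathway (circles), ordered by place in the pathway, with filled blue for genes called lower, filled red for genes called higher and open grey for genes not called. Ivd (-0.98) and Ppm1k (-0.82) lie farthest to the left and Bcat1 (1.42) farthest to the right, and 5 of the 6 genes of the propionate end are blue.

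Of 10 genes for biotin, lipoate and thiamine handling and for electron transfer from acyl-CoA dehydrogenases, 2 were called lower and 1 higher, where 14.8% and 18.4% of all genes tested were. Etfa and Etfb encode the electron transfer flavoprotein, which takes electrons from IVD, ACADSB and ACAD8, and Etfdh encodes the oxidoreductase that passes them on to ubiquinone. Etfdh was at 830, 708, 834 and 777 CPM in WT and 549, 549, 571 and 547 CPM in TAZG197V (log2 fold change -0.51, adjusted p = 0.000655), and Etfa fell by 16.7% (-0.26, adjusted p = 0.012, not called without TAZG197V 1 at 0.0652). Etfb, which shares 58.2% of its exon bases with other genes on the same strand, was not called (-0.07, adjusted p = 0.525). Lias, the lipoate synthase needed by Dbt's product, was higher (0.22, adjusted p = 0.015) but was not called without WT 2, TAZG197V 2 or TAZG197V 4.

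Of 6 genes for transport of these amino acids, 4 were called higher and 1 lower, where 18.4% and 14.8% of all genes tested were. Over the alternative fits 3 to 4 were called higher and 0 to 1 lower. Slc7a5, which carries leucine and other large neutral amino acids across the plasma membrane, was at 4.6, 4.73, 5.48 and 11.3 CPM in WT and 117, 105, 109 and 110 CPM in TAZG197V. No WT library came near the mutant range, and the log2 fold change was 4.15 ± 0.183 (edgeR adjusted p = 4.83e-06). WT 4, the highest of WT, is also a library with raised brain and red cell genes, and without both number 4 libraries the value was 4.45. Slc3a2, its heavy chain partner, went from 33.5 ± 2.75 to 113 ± 4.57 CPM (log2 fold change 1.76). Slc25a44, the mitochondrial branched-chain amino acid carrier, was at 21.8 to 25 CPM in WT and 26.4 to 29.8 CPM in TAZG197V (0.28, adjusted p = 0.0128) and was called in all 17 alternative fits. Slc7a8 (0.41, adjusted p = 0.0205) and Slc43a1 (-0.44, adjusted p = 0.0496) had overlapping genotypes and were called in 10 and 2 of the 17 alternatives. Slc7a8 was not called without WT 1 (adjusted p = 0.0631), WT 3 (0.0684) or TAZG197V 2 (0.0538), and Slc43a1 lost its call whichever of the 8 libraries was left out.

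Among 4 genes for regulators linked to this pathway in muscle or liver, 1 was called, and it was lower. The rule called 14.8% of all genes tested lower and 18.4% higher. Mlxipl, which encodes the carbohydrate response factor ChREBP, was at 26.6, 24.8, 32.5 and 25.4 CPM in WT and 10.7, 8.04, 10.3 and 10.6 CPM in TAZG197V. The mutant libraries were all below the lowest WT library by a wide margin (log2 fold change -1.48 ± 0.113, adjusted p = 6.63e-05). Klf15, a Krüppel-like factor, was not called (0.33, adjusted p = 0.118) but was called higher without WT 1 (0.52, adjusted p = 0.00266), and Ppara was not called (-0.27, adjusted p = 0.117) but was called lower without WT 3 (-0.39, adjusted p = 0.00347). Ppargc1a was not called (-0.07, adjusted p = 0.645).

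The related 2-oxoacid dehydrogenase complexes, which share the E1, E2 and E3 layout with BCKDH, had 3 of 7 genes called lower and 1 higher, with a median log2 fold change of -0.12. Over all genes tested, 14.8% were called lower and 18.4% higher. Over the alternative fits 2 to 3 of the 7 were called lower and 0 to 1 higher. Dlst, the E2 of the oxoglutarate complex, fell by 22.1% (-0.36, adjusted p = 0.00423), and Dbt, the E2 of BCKDH, fell by 20.2%. Dlat, the E2 of the pyruvate complex, was called lower with overlapping genotypes (-0.22, adjusted p = 0.0178, not called without WT 3, TAZG197V 1 or TAZG197V 2), and whether its change differs from those of Dlst and Dbt was not tested. Dhtkd1, the E1 of the oxoadipate complex, was lower with overlapping genotypes (-0.48, adjusted p = 0.00905). Pdhb, the pyruvate counterpart of Bckdhb, was higher with overlapping genotypes (0.26, adjusted p = 0.019, not called without WT 2, TAZG197V 1, TAZG197V 2 or TAZG197V 4). The Pdhb call was also lost with no surrogate variables (0.0763) or with the lane in their place (0.0849). Among the kinases and phosphatases of the pyruvate complex, 2 of 6 were called lower and 1 higher, against 14.8% and 18.4% of all genes tested. The kinase Pdk2 was lower (-0.34, adjusted p = 0.00425) and called in all 17 alternative fits. The kinase Pdk4 was higher (0.64, adjusted p = 0.0417) with overlapping genotypes, and its call was lost in 8 of 17 fits, among them those without WT 1 (adjusted p = 0.0803), WT 2 (0.0657), WT 3 (0.0854), TAZG197V 1 (0.0788) or TAZG197V 2 (0.0925). The phosphatase Pdp2, the functional counterpart of Ppm1k, was at 56.1, 50.5, 54.1 and 70.8 CPM in WT and 26.5, 23.7, 19.9 and 24.3 CPM in TAZG197V. It stood at 0.41 times the WT level with no overlap (log2 fold change -1.29, adjusted p = 5.99e-05), and whether its fall differs from that of Ppm1k was not tested. The other phosphatase Pdp1 was not called (0.08, adjusted p = 0.433).

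Markers of cell types are set against all genes tested, of which 14.8% were called lower and 18.4% higher. Of 5 cardiomyocyte markers, 3 were called lower and 0 higher. WT libraries had 50598 to 56327 CPM over the 5 together and mutant libraries 41690 to 46338 CPM, a log2 ratio of the means of -0.24, with Myh6 (-0.28), Tnnt2 (-0.34) and Ryr2 (-0.45) called lower and Actc1 and Myl2 not called. Tnnt2 and Ryr2 were called in all 17 alternative fits. Myh6 was not called in 7 of them, namely without both number 4 libraries (adjusted p = 0.103) and without WT 1, WT 2, WT 4, TAZG197V 1, TAZG197V 2 or TAZG197V 4 (adjusted p of 0.0559 to 0.169), and Myl2 was called lower without WT 4 (0.0342) or TAZG197V 4 (0.044). Of 4 endothelial markers (sums of 614 to 877 CPM in WT and 495 to 636 CPM in mutants, log2 ratio of the means -0.33) Pecam1 and Cdh5 were called lower, each in 10 of 17 alternative fits. Pecam1 lost its call without any of WT 1, WT 2, WT 3, WT 4, TAZG197V 1, TAZG197V 2 and TAZG197V 4 in turn (adjusted p of 0.0514 to 0.11), and Cdh5 with no surrogate variables (0.063), with the lane in their place (0.0638), without both number 4 libraries (0.0505) and without WT 3, TAZG197V 1, TAZG197V 2 or TAZG197V 4 (0.0566 to 0.0797). The other endothelial markers gained a call as lower in a few fits, Tie1 without WT 4 (0.0295), TAZG197V 4 (0.0496) or both (0.0425) and Kdr without WT 1 (0.0199) or by DESeq2 (0.00458). Of 4 fibroblast markers (743 to 1242 CPM in WT and 498 to 692 CPM in mutants, log2 ratio of the means -0.58) Pdgfra and Dcn were called lower, Pdgfra not without TAZG197V 2 (0.0506) or TAZG197V 4 (0.0566) and Dcn not with the replicate block (-0.63, adjusted p = 0.0517). Without TAZG197V 3, Col1a1 (0.00582) and Lum (0.00553) were called lower too, and Lum also by DESeq2 (0.0447). The 4 macrophage markers had sums of 114 to 131 and 107 to 164 CPM with edgeR adjusted p of 0.113 or more. Of these, C1qa was called higher without TAZG197V 1 (0.30, adjusted p = 0.0403), TAZG197V 4 (0.38, 0.0497) or both number 4 libraries (0.36, 0.0433). Of brown adipocyte genes, Cidea was higher (0.35, adjusted p = 0.0195), though not called without TAZG197V 1 (0.066), TAZG197V 2 (0.0631), TAZG197V 4 (0.094) or both number 4 libraries (0.0554), and the defining gene Ucp1 was at most 0.385 CPM. White adipocyte markers summed to 0.272 to 20.7 CPM in WT and 0.161 to 3.45 CPM in TAZG197V. Of these, Cfd was called lower (-1.82, adjusted p = 0.0137) with overlapping genotypes and its highest level, 10.1 CPM, in WT 2. It was called in 10 of 16 alternative fits, and not without WT 1 (-1.31, adjusted p = 0.0559) or WT 2 (-1.01, adjusted p = 0.439), with no or 1 surrogate variable, or with the lane or the replicate block in their place (0.182 to 0.516). Of the 5 brain genes, Slc1a2 was called higher (1.07, adjusted p = 0.0257) with overlapping genotypes, at 30.8 CPM in WT 4 and 79 CPM in TAZG197V 4 against 0.632 to 2.18 CPM in the other 6 libraries. It was called in 11 of 17 alternative fits, and not without WT 1 (0.102), WT 2 (0.0745), TAZG197V 4 (0.0865) or both number 4 libraries (0.73, adjusted p = 0.0686), with no surrogate variables (0.554) or with the lane in their place (0.454). Skeletal muscle markers reached at most 0.507 CPM in any library. The part of these cell type differences in the results was not tested.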

How the data were processed

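Per the labels and the methods of the study, the authors sequenced 50 bp single ends of total heart RNA, aligned them to mm10 with STAR 2.7.3a and counted reads over exons with featureCounts (Subread 2.0.0). The deposited values are raw counts, whole numbers for each Ensembl gene without normalisation. The strand setting, the annotation release and the treatment of multiply aligned reads are not given in the sources used here, so overlapping genes such as Bckdha may share or lose reads. Symbols and exons came from GENCODE M21 (GRCm38), which named 55144 of 55471 gene rows, and 92 spike-in rows summing to 0 were left out.

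Counts were fitted in R 4.3.3 with edgeR 4.0.16: filterByExpr (15084 genes), TMM scaling, 2 surrogate variables from svaseq (sva 3.50.0, genotype protected, seed 1) and the two-sided quasi-likelihood F-test, with Benjamini-Hochberg adjustment across the whole table. A call needed an adjusted p under 0.05, a difference of at least 15% over the lower genotype and a mean size-factor-scaled count of at least 50. The SE of a log2 fold change was its size over the square root of F. CPM are TMM-scaled, and ± is the SD over 4 libraries unless given as SE. Counting error alone is 2.84% at the lowest count of a listed gene in any library (1243) and 0.725% at the highest (19014), and is part of the spread between libraries. Ratios of counts were compared by exact permutation over libraries. Within-lane values are differences of mean log2(CPM + 0.1), with 2 libraries per genotype in a lane. The procedure was tested on simulated counts. DESeq2 1.42.0, other covariates, filters and scalings, and omission of libraries were the alternatives, 17 fits in all.

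All 10 genes were described, and of the other listed genes those called were named first, with markers mostly given by list. The list of other pathway genes is not complete, and some results are not reported here. The members, lists and tests were chosen with earlier results of these data known. No library repeated another (chi-square per gene of at least 10.2 within a genotype, genes summing to at least 10 counts). Promoters are the 250 bases before each RefSeq start (GRCm38.p6). They were found for 9 of the 10 genes, and Dbt had no entry.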

Additional observations from a re-analysis of the deposited data

Results flagged for a closer look

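In 13 of 136 sets of 4 libraries, the highest or lowest library lay apart from the others by more of its genotype's range than Dixon's 95% critical value allows, where chance gives 6.8 (about 1 in 20). Among the listed genes this was so for Bcat2 only, where TAZG197V 3 was the highest mutant library with a gap of 0.919 of the range. Among the other pathway, cofactor, transport and regulator genes, WT 2 was the lowest of WT for Mmab (0.96), TAZG197V 3 the highest mutant for Etfdh (0.943), WT 4 the highest of WT for Slc7a5 (0.87), TAZG197V 4 the highest mutant for Slc7a8 (0.953) and TAZG197V 2 the lowest mutant for Mlxipl (0.841).

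Summed markers of other cell types accounted for the rest. WT 3 was the highest of WT for endothelial markers (0.893). WT 2 was the highest of WT for fibroblast (0.906) and adipocyte markers (0.845), and TAZG197V 4 the highest mutant for adipocyte markers (0.967). For brain markers WT 4 (0.972) and TAZG197V 4 (0.988) were the highest of their genotypes, and for red cell markers WT 4 was the highest of WT (0.987). Their part in the results was not tested. Without both number 4 libraries 6 of the 10 listed genes were called lower, and Bckdha lost its call. That fit called 2111 of all genes lower and 2595 higher.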

How the results depend on the processing

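Over 17 alternative fits of the 10 genes, 153 of 170 values kept their direction and their side of the threshold, 17 kept the direction but were no longer called (10 of Bckdha and 7 of Bckdk) and 0 reversed. Dbt, Ppm1k, Ivd, Mccc2 and Hibadh were called lower in all of them. The number of the 10 called lower was 7 as reported, 5 to 7 with a library left out, 5 with no low-count filter and 6 or 7 under the other fits. A fold change of at least 1.5 left 2 of the 10 (Ivd and Ppm1k), with 782 of all genes called lower and 977 higher in place of 2232 and 2781. Leaving out 1 library gave 1760 to 2227 lower and 2336 to 2753 higher. No ratio can pass with a library left out, where the smallest exact permutation p is 0.0571.

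Libraries of the 2 genotypes share the numbers 1 to 4, and deviations of same-numbered libraries correlated at 0.277, 0.0436, 0.28 and 0.416, against -0.464 to 0.317 for different numbers, and TAZG197V 1 and TAZG197V 2 correlated best with WT 3, so the numbers were not taken as pairs. With the replicate block, 6 of the 10 genes were called lower (Bckdk was not, adjusted p = 0.0603), and 1834 of all genes were called lower and 2438 higher by edgeR. Without surrogate variables these counts were 1782 and 2410. The listed genes had at least 1243 counts in every library, where counting error alone is 2.84%.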
